A study of Mus musculus with 6 samples.

Results

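Replication-dependent histone genes encode the H1, H2A, H2B, H3 and H4 proteins that package newly made DNA. They were collected here as the rows of the count table whose mouse symbol follows the Hist1, Hist2, Hist3 or Hist4 naming, or its newer H1f, H2ac, H2bc, H3c and H4c equivalents, with pseudogenes left out. The rule found 65 of 47069 genes, and it used no measured value. H1 had 6 members, H2A 18, H2B 16, H3 12 and H4 13. Of the 65, 52 lay in the Hist1 cluster on chromosome 13, 10 in the Hist2 cluster on chromosome 3, 2 on chromosome 11 (Hist3) and 1 on chromosome 6 (Hist4). The cells were LβT2, an immortalized mouse line with features of pituitary gonadotropes, at passage 14. All 6 libraries came from cells given gonadotropin-releasing hormone (GnRH) at 2 nM for 40 min, so no untreated group enters these comparisons. After trypsin, 3 samples were lysed directly in guanidium thiocyanate (fresh). The other 3 were suspended in RNA-Best, a proprietary preservative, and held at 4°C before lysis for 4 days or more. The paper's methods also describe freezer storage of directly lysed cells and a further spin of RNA-Best cells before lysis. The groups therefore differ in storage and handling as well as in the preservative. The sources used here do not say whether the samples of a group were separate cultures, so the spread between replicates may be technical.

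Histone genes of this class are transcribed when DNA is replicated, from small, mostly intronless genes that sit in clusters at a nuclear structure called the histone locus body. Their mRNAs usually end not in a poly(A) tail but in a conserved stem-loop, which is bound by SLBP (stem-loop binding protein) and cut just downstream with the help of the U7 small nuclear ribonucleoprotein, and SLBP also takes part in their translation and decay. Some of these genes are also known to make longer transcripts that run past the stem-loop and carry a poly(A) tail. The libraries were made with an mRNA kit from polyadenylated RNA, so the values below count what such a kit recovers.

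The stem-loop was searched for after the stop codon of each annotated transcript, as the pattern GGNNNTNNNNANNNCC with paired stem letters. It was found in 44 of the 65 members, counted by gene. The same paired pattern occurred in 1.28% of the other protein-coding transcripts, counted by transcript and searched over their whole length. The loops of 6 members are shown because these genes carried most of the counts or the largest changes described below. Capitals mark the 16 bases of the stem and loop, and 5 bases on either side are in lower case where the annotation reaches that far:
Hist3h2ba: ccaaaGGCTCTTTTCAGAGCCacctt
Hist3h2a: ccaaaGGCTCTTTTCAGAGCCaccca
Hist1h1c: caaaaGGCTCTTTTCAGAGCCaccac
Hist1h2ae: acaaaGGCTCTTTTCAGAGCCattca
Hist1h4i: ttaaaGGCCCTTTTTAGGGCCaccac
Hist1h4m: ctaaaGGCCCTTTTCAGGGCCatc

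These capitals lie at chr11:58949349-58949364 (plus strand) for Hist3h2ba, chr11:58955172-58955187 (plus) for Hist3h2a and chr13:23739512-23739527 (plus) for Hist1h1c. Those of Hist1h2ae lie at chr13:23570668-23570683 (minus), those of Hist1h4i at chr13:22040966-22040981 (minus) and those of Hist1h4m at chr13:21812129-21812144 (plus), all in GRCm38 and after the stop codon in the last exon. The letters of the core set H4 apart from the other types. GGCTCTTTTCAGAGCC was shared by 24 members of the H1, H2A, H2B and H3 types, and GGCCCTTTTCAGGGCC by 7 members, all of them H4. Hist1h4i shared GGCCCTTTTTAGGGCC with only 1 other member, Hist2h4. The loop began 21 to 58 bases after the stop codon, with a median of 31 over the 46 transcripts that hold one. Of the 21 members with no match, 17 had annotations that end within 50 bases of the stop codon. Hist1h2bc and Hist2h2be had 742 and 2192 annotated bases after the stop codon and no match.

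The fresh libraries held 14477304 to 47438746 counts and the RNA-Best libraries 4909418 to 11999363. A gene at 0 could thus still hold up to 3 counts, or 0.0632 to 0.611 CPM (counts per 1000000 counts of the library) depending on the library. These limits use the library totals, while the other CPM values here carry TMM scaling, and they cover counting error only. Of the gonadotrope markers, 7 of 8 had counts and Fshb, the FSH beta subunit, was at 0 in every library. Of 7 markers of other pituitary hormone cells, Tshb, the TSH beta subunit, had 0.769, 0.931 and 1.04 CPM in fresh and 2.26, 1.22 and 1.41 CPM in RNA-Best libraries and was called higher (log2 fold change 0.91, edgeR adjusted p = 0.00350), and the other 6 had 3 counts or fewer in every library. Pecam1, an endothelial marker, had 42.0 to 43.3 CPM in fresh and 37.5 to 40.6 CPM in RNA-Best libraries and was called lower (log2 fold change −0.15, edgeR adjusted p = 0.0150). S100b, a folliculostellate marker, had 2 counts or fewer in every library. The part of these markers in the histone values was not tested. All 35 genes of a list of S phase genes, the enzymes and loading factors of DNA replication, passed the filter on low counts.

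In all, the 65 histone genes took 0.0298%, 0.0303% and 0.0300% of the counts of the fresh libraries and 0.0260%, 0.0266% and 0.0255% of those of the RNA-Best libraries. Counts were seen for 58 of the 65 members in at least 1 library, and for 53 to 58 in a single library. The test needed higher counts, and 35 members passed its filter, while the 23 others with counts had mean levels of 0.0308 to 0.645 CPM. Among the members at 0 throughout was Hist1h2aa, a testis H2A gene. The remaining 6 at 0 were Hist2h2ab, Hist2h2aa1, Hist2h2aa2, Hist2h2bb, Hist2h3b and Hist2h3c1, all in the Hist2 cluster. Many histone genes share long stretches of sequence with each other, and in 5 of the 7 genes at 0 every stretch of 100 bases also occurred in another gene. Over all members the median share of such stretches was 38.5%, 28 members had at least 50% of them shared, and 6 had none. The deposited values of 51 members held parts of counts, as arise when a read is divided among several genes. Hist1h2ao and Hist1h2ap had the same values in all 6 libraries. Levels of single members with many shared stretches are therefore uncertain, and these shares are given beside only some of the results they touch. For genes named below without one, the share was 31.8% in Hist1h4a, 30.7% in Hist1h2ae, 29.8% in Hist3h2a and 25.4% in Hist1h2bc. It was 37.1% in Hist1h3g, 28.4% in Hist1h3c, 5.07% in Hist1h1c and 4.85% in Hist3h2ba.

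A few genes carried most of the histone counts. The 6 with the most counts (Hist3h2ba, Hist1h4i, Hist1h1c, Hist2h2be, Hist1h2bc and Hist3h2a) held 79.1% to 80.3% of all member counts in each library, and Hist3h2ba held 32.0% over the libraries together. The sixth had a mean of 10.4 CPM and the next a mean of 4.02 CPM. Each of 4 types had 1 leading gene. Hist1h1c gave 94.1% of the H1 counts, Hist3h2a 68.5% of the H2A counts, Hist1h4i 67.5% of the H4 counts and Hist3h2ba 53.8% of the H2B counts. The H3 type was spread more evenly, with 25.6% of its counts in its leading gene, Hist1h3c.

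Levels of different genes were compared as CPM per kb of exon, averaged over the 6 libraries. Hist3h2ba, an H2B gene on chromosome 11, stood first at 145 CPM per kb and Hist1h4i, an H4 gene, followed at 48.7. Next came Hist1h2bc (H2B) at 23.2, Hist1h1c (the linker histone H1.2) at 20.9 and Hist2h2be (H2B) at 11.3. Hist1h4k (H4) was sixth at 6.22 CPM per kb, with 64.3% of its 100-base stretches shared. In CPM every fresh value of Hist2h2be (30.2, 29.3 and 29.8) lay above every fresh value of Hist1h2bc (25.8, 28.3 and 27.6), and the order is the reverse per kb, where their exonic lengths of 2620 and 1156 bases enter. Hist1h2bc and Hist1h1c, with 1560 bases, lay close together per kb and in the reverse order in CPM. Among genes with a count, the median was 3.46 CPM per kb for H2B, 2.21 for H4, 1.53 for H3, 0.674 for H2A and 0.422 for H1. The lowest of these was Hist1h1t, the testis linker histone, with 0.0338 CPM per kb and counts of 1, 1 and 2 in the fresh libraries and 0 in the RNA-Best libraries. Hist1h2ba, the testis H2B gene that neighbours Hist1h2aa, reached 0.982 CPM per kb, below the median of its type.

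**Figure D1:**
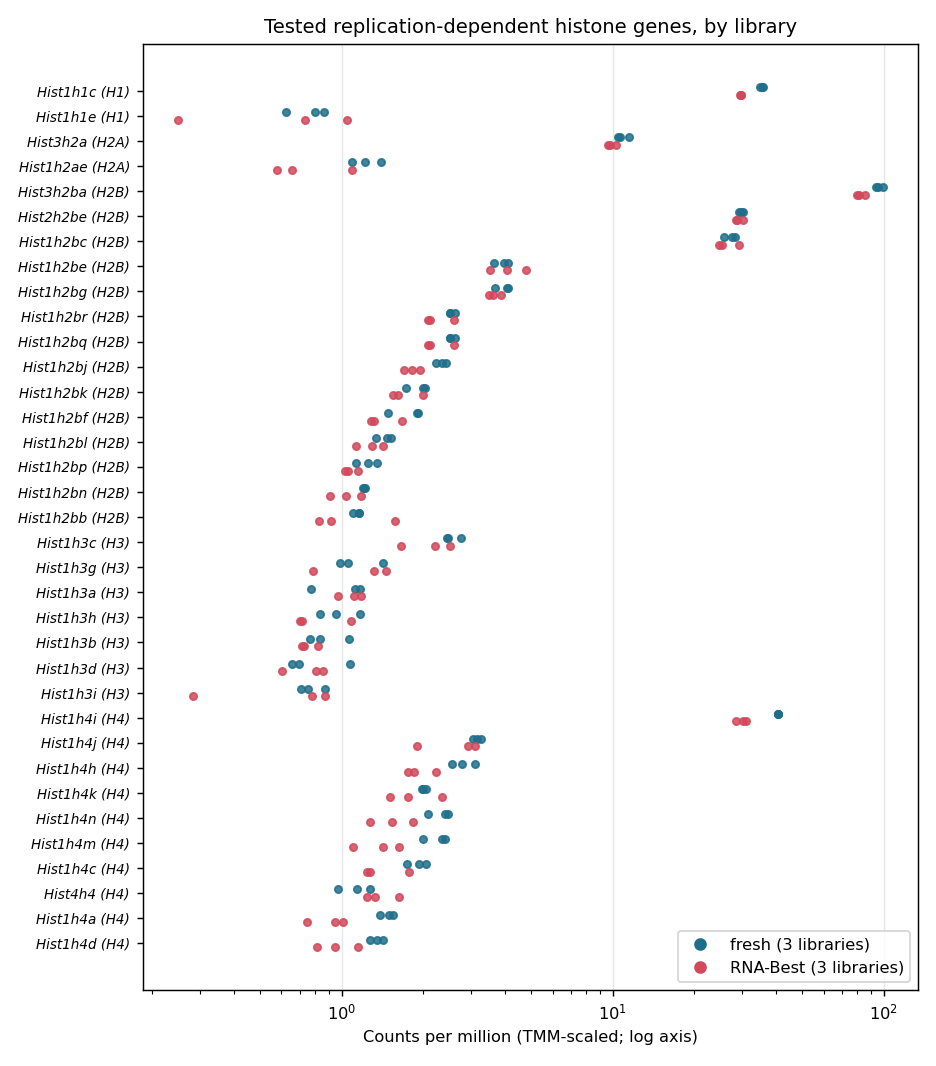
Level of the 35 tested histone genes in each library, as TMM-scaled CPM on a log axis, grouped by histone type and ordered by mean level. Hist3h2ba stands between 79.7 and 99.5 CPM, 5 more genes lie above 5 CPM, and the other 29 lie lower.

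The genes with the highest levels had long annotated 3′ ends. A group of 15 members was formed after the values were seen, and it is given as a description. In these genes at least 1 transcript had AATAAA or ATTAAA, the usual poly(A) signals, within its last 40 bases and ran over 100 bases past the stem-loop, or over 200 bases past the stop codon where no loop matched. Such a signal was found in at least 1 transcript of 17 of the 65 members and in 48.7% of the other protein-coding transcripts, counted by transcript. In Hist3h2ba 169 bases followed the loop printed above, with AATAAA starting 27 bases before the end. In Hist1h4i 330 bases followed it, with ATTAAA 21 bases before the end, and in Hist1h1c 840 bases with AATAAA 26 bases before the end. For Hist3h2a the stretch was 1643 bases long.

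These 15 members held 75.2% to 76.5% of the member counts in each library, and 5 of the 6 genes with the most counts were among them. The exception was Hist1h2bc, whose spliced transcript had no signal in its last 40 bases. Most members of the group were not high, however. The 14 with a count had a median of 1.82 CPM per kb and a range of 0.0338 to 145, and the 44 other members with a count had a median of 1.15 and a range of 0.0784 to 23.2. At the low end of the long group stood Hist2h4, at 0.174 CPM per kb, and Hist4h4, at 0.441. Lengths follow a newer GENCODE annotation than the counting did, and exons added since then would lower these values per kb.

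**Figure D2:**
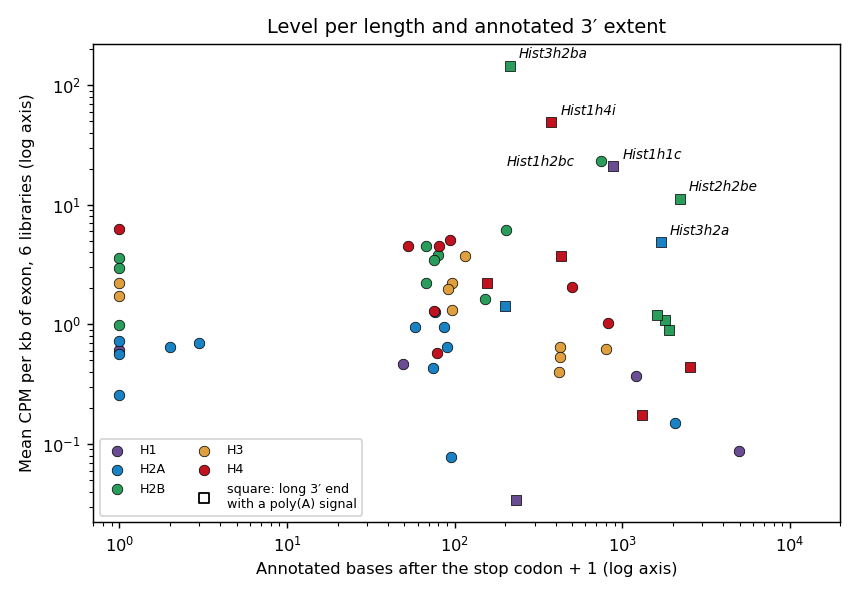
Mean level of the 58 members with a count, in CPM per kb of exon over the 6 libraries, against the number of annotated bases after the stop codon plus 1, both on log axes. The 5 highest genes all have over 200 such bases, and many genes with ends as long lie below 5 CPM per kb.

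H2A and H2B genes often stand head to head, with their starts facing each other across a short shared promoter. There were 12 such pairs, with 175 to 305 bases between the 2 annotated starts. Per kb of exon and averaged over libraries, the H2B gene was the higher one in all 12 pairs, and it was higher in 69 of the 72 combinations of pair and library. In the 11 pairs with any count of the H2A gene, the ratio of H2B to H2A ran from 1.14 to 154, with a median of 5.39. The pairs at the top were Hist1h2ac with Hist1h2bc, at 0.15 and 23.2 CPM per kb, and Hist2h2ac with Hist2h2be, at 0.0784 and 11.3. Near equality was seen for Hist1h2ap with Hist1h2br, at 0.952 and 1.09 CPM per kb, where 92.2% and 86.4% of the 100-base stretches were shared with other genes. The median share of such stretches was 69.9% in H2A and 42.5% in H2B genes, and its part in the difference was not tested. This comparison was chosen after the values were seen and carries no test. The leading H2A gene, Hist3h2a, and the leading H2B gene, Hist3h2ba, do not form such a pair, since both lie on the plus strand of chromosome 11.

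Promoter sequences from RefSeq (GRCm38.p6) matched 60 members, with 61 promoters. The 250 bases before each start were searched on both strands for motifs known from histone genes, chosen after the values were seen, and matches were counted for each motif on its own, so that they may overlap. CCAAT was present in 82.0% of the member promoters and in 33.8% of all 32851 promoters. By type it stood in 6 of 6 H1, 18 of 18 H2A, 15 of 15 H2B, 8 of 10 H3 and 3 of 12 H4 promoters. TATAAA was present in 47.5% of member promoters and 12.4% of all. The octamer ATTTGCAT, the site of POU2F1, stood in 7 H2A and 6 H2B promoters and in none of the other types, against 1.60% of all promoters. AAACACA stood in 5 of 6 H1 promoters (6.25% of all), and GGTCCG, from the subtype-specific element of H4 genes, in 9 of 12 H4 promoters (6.72% of all). A match describes letters and not binding.

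The 150 bases before the start of the leading gene of 4 types are shown because they hold these motifs in different sets, with matches on either strand in capitals:
Hist3h2ba: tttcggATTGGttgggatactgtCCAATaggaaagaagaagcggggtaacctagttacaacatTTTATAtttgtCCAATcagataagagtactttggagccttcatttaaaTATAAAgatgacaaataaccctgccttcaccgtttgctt
Hist3h2a: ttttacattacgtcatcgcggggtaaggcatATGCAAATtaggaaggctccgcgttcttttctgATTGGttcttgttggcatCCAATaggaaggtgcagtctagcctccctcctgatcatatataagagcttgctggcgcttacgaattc
Hist1h1c: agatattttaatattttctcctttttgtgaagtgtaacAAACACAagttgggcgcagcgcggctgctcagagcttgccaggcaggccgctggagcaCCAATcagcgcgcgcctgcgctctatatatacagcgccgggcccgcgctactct
Hist1h4i: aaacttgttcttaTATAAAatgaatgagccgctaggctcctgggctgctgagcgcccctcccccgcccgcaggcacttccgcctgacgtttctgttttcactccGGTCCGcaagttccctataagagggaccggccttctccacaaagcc

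They lie at chr11:58948761-58948910 (plus strand), chr11:58954535-58954684 (plus), chr13:23738657-23738806 (plus) and chr13:22041363-22041512 (minus) in GRCm38. The H2B promoter holds 3 CCAAT and 2 TATAAA matches. The H2A promoter holds the octamer and 2 CCAAT matches, the H1 promoter AAACACA and CCAAT, and the H4 promoter TATAAA and GGTCCG.

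The second question was how these levels compared between cells kept in RNA-Best and fresh cells. Summed over the 65 members, the level was 299, 305 and 302 CPM in the fresh and 258, 265 and 254 CPM in the RNA-Best libraries. All RNA-Best values lay below all fresh values, with means of 259 ± 5.83 and 302 ± 2.74 CPM (SD, n = 3 each) and a ratio of 0.859. Without the 3 most counted members (Hist3h2ba, Hist1h1c and Hist1h4i) the ratio was 0.909. Over the 14 members whose deposited values were all whole counts, the 7 at 0 included, it was 0.971, and there the groups overlapped. Most of that sum came from Hist2h2be and Hist3h2a, with means of 29.5 and 10.4 CPM, and the next, Hist4h4, had 1.26 CPM. In bulk RNA, fewer cells making a transcript and less of it per cell cannot be told apart, and the same holds for all differences below.

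The H4 sum was 60.5, 59.8 and 60.9 CPM in fresh and 45.3, 45.4 and 44.1 CPM in RNA-Best libraries, a ratio of 0.744. For H1 the ratio was 0.848, for H2A 0.868 and for H2B 0.899, and in each of these the groups did not overlap. Without Hist3h2ba, its most counted gene, the H2B ratio was 0.953 and the groups overlapped. For H3, with 9.07, 9.90 and 11.2 CPM in fresh and 9.15, 8.13 and 8.82 CPM in RNA-Best libraries, they overlapped. The make-up of the histone counts shifted accordingly. H4 held 20.2%, 19.6% and 20.2% of them in fresh and 17.6%, 17.1% and 17.4% in RNA-Best libraries. H2B held 58.8%, 59.6% and 58.2% in fresh and 61.4%, 62.6% and 60.8% in RNA-Best libraries, again with no overlap between groups. The H1, H2A and H3 shares overlapped between groups, within 11.9% to 12.6%, 5.07% to 5.79% and 3.03% to 3.71%.

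**Figure D3:**
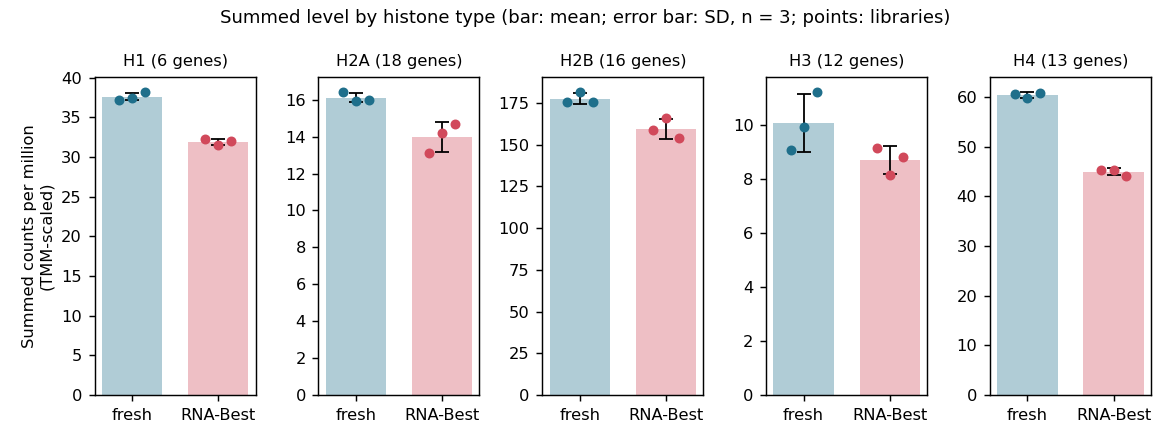
Summed TMM-scaled CPM of all members of each histone type, with bars for the mean, error bars for the SD (n = 3) and a point for each library; each axis starts at 0 and has its own scale. RNA-Best points lie below fresh points for H1, H2A, H2B and H4, with mean H4 sums of 60.4 and 44.9 CPM, and H3 overlaps.

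Gene by gene, edgeR's quasi-likelihood test with Benjamini-Hochberg adjustment over all 14736 genes tested called 7 of the 35 tested members at a false discovery rate of 5%. All 7 were lower in RNA-Best (20% of those tested, against 24.8% of all genes tested), and none was higher (against 26.0% of all genes tested). Nor was any of them higher at an unadjusted p under 0.05, or with DESeq2 or limma-voom. Lower and higher calls together made up 50.8% of all genes tested. In 11 members all RNA-Best values lay below all fresh values (31.4%, against 29.0% of all genes tested), and in none did they lie above (also 29.0% of all genes tested). The estimated log2 fold change was below 0 in 33 of the 35 members, beside 7507 of all 14736 genes tested and 1176 of the 1571 of up to 1 kb. Its median was −0.18 over the members and −0.01 over all genes tested. With the length offset described below, fewer members lay below 0. Hist1h3a, at 0.0863, and Hist1h4k, at 0.0840, were among those that turned.

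Most members were counted too thinly for small changes to be called. Of the 29 tested members with a mean under 5 CPM, 4 (13.8%) were called lower, and among all 3287 tested genes at such levels 5.29% were called lower and 14.2% higher. Among the 6 members at 5 CPM or more, 3 were called, all lower. Among all 11449 tested genes at such levels 30.4% were called lower and 29.3% higher.

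The largest group of calls was in H4, the core histone that pairs with H3. Of its 10 tested members 4 fell and none rose (24.8% and 26.0% of all genes tested), and the median log2 fold change was −0.45. The count of 4 went down to 1 without RNA-Best replicate 3, to 2 without fresh replicate 1, to 2 with the length or the GC offset and to 1 with DESeq2 or with the replicate block and length offset, and Hist1h4i was called in each of these fits. Over all genes, lower calls in these fits ran from 2779 of 27250 with DESeq2 to 4096 of 14736 with the GC offset. Hist1h4i stood at 40.9, 40.7 and 40.9 CPM in fresh and at 31.0, 30.2 and 28.6 CPM in RNA-Best libraries. Only 15.1% of its 100-base stretches were shared. The groups were far apart beside their spread, and its log2 fold change was −0.45 ± 0.06 (SE; edgeR adjusted p = 1.75e-08).

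The other 3 H4 calls were genes of low level. Hist1h4m had 2.40, 2.00 and 2.34 CPM in fresh and 1.43, 1.62 and 1.10 CPM in RNA-Best libraries, with no overlap and a log2 fold change of −0.74 ± 0.23 (edgeR adjusted p = 0.00766). Hist1h4a had 1.55, 1.5 and 1.38 CPM in fresh and 0.947, 0.747 and 1.01 CPM in RNA-Best libraries, also with no overlap, and a log2 fold change of −0.70 ± 0.26 (edgeR adjusted p = 0.0394). Hist1h4n, named because it completes the calls though the rule for named genes did not pick it, had a log2 fold change of −0.63 ± 0.22 (edgeR adjusted p = 0.0200). This call was lost without fresh replicate 1 (−0.55, edgeR adjusted p = 0.0620), without RNA-Best replicate 3 (−0.44, edgeR adjusted p = 0.241), with the length offset (−0.48, edgeR adjusted p = 0.100; with the replicate block as well, 0.110), with the GC offset (edgeR adjusted p = 0.0592) and with DESeq2 (adjusted p = 0.155). Hist1h4m and Hist1h4n shared 88.1% and 80.7% of their 100-base stretches with other genes, where reads of one gene cannot be told from reads of another. Their deposited counts nearly coincided in every library, at 96.85, 94.43 and 33.64 for Hist1h4m and 99.18, 98.43 and 34.64 for Hist1h4n in fresh and at 12.6, 8 and 13.28 and 13.6, 9 and 15.28 in RNA-Best libraries, so these calls are not independent of each other. The call of Hist1h4m was lost without RNA-Best replicate 3 (log2 fold change −0.53, edgeR adjusted p = 0.167), with DESeq2 (adjusted p = 0.0968) and with the replicate block and length offset (−0.61, edgeR adjusted p = 0.0518). That of Hist1h4a was lost when any library other than fresh replicate 3 was left out, with edgeR adjusted p between 0.0557 and 0.110. It was also lost with the length offset (edgeR adjusted p = 0.128), the replicate block (edgeR adjusted p = 0.0570) or both together (edgeR adjusted p = 0.167). The GC offset (edgeR adjusted p = 0.0682) and DESeq2 (adjusted p = 0.221) did not call it either.

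Within H4, the groups did not overlap in 6 of the 10 tested genes, always with RNA-Best lower, against 29.0% of all genes tested in that direction and 58.0% in either. Hist1h4k, the H4 gene with the second highest level per kb, was not among them, with 2.00, 2.05 and 1.99 CPM in fresh and 1.51, 1.76 and 2.34 CPM in RNA-Best libraries (log2 fold change −0.07 ± 0.21, edgeR adjusted p = 0.826). Hist4h4, which stands alone on chromosome 6, had the only positive estimate of the type, 0.20 ± 0.25 (edgeR adjusted p = 0.564).

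Among the linker histones, 2 of 6 genes could be tested. Hist1h1c stood at 35.1, 35.5 and 35.8 CPM in fresh and at 29.4, 29.8 and 29.8 CPM in RNA-Best libraries. Its replicates lay close together in both groups, and its log2 fold change of −0.25 ± 0.06 passed the test (edgeR adjusted p = 2.95e-04). Hist1h1e, for H1.4, lay between 0.249 and 1.05 CPM, and its groups overlapped (log2 fold change −0.56 ± 0.37, edgeR adjusted p = 0.232). Hist1h1b, for H1.5, was too low for the filter, with 7, 15 and 5 counts in fresh and 6, 1 and 12 in RNA-Best libraries, or 0.174, 0.317 and 0.347 against 0.679, 0.203 and 0.996 CPM. Its groups overlapped, yet with no filter it was the one member called higher, at 1.41 (edgeR adjusted p = 0.00721). Outside Hist1h1c, the H1 genes together had a ratio of 1.03 between groups.

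H2B, which forms a dimer with H2A in the nucleosome, had 14 tested members and 1 call, a lower one (24.8% of all genes tested were called lower). Hist3h2ba stood at 94.9, 99.5 and 94.0 CPM in fresh and at 81.1, 85.1 and 79.7 CPM in RNA-Best libraries, with no overlap and a log2 fold change of −0.25 ± 0.04 (edgeR adjusted p = 4.01e-06). With the length offset it was −0.11 (edgeR adjusted p = 0.0291). With the replicate block as well it was −0.09, and the call was lost (edgeR adjusted p = 0.0712). The next most counted H2B genes gave other values. Hist2h2be had 30.2, 29.3 and 29.8 CPM in fresh and 30.2, 28.8 and 28.5 CPM in RNA-Best libraries, and the groups overlapped (log2 fold change −0.03 ± 0.06, edgeR adjusted p = 0.729). In Hist1h2bc the values were 25.8, 28.3 and 27.6 CPM in fresh and 25.3, 29.2 and 24.6 CPM in RNA-Best libraries (log2 fold change −0.08 ± 0.07, edgeR adjusted p = 0.335). With an offset for GC content both of these passed the test, at −0.15 for Hist2h2be (edgeR adjusted p = 0.0288) and −0.20 for Hist1h2bc (edgeR adjusted p = 0.0132). All 14 H2B estimates were below 0, from −0.36 to −0.01, with a median of −0.16. Below 0 were also 7507 of all 14736 genes tested and 1176 of the 1571 of up to 1 kb. The H2B estimates are not all independent. Hist1h2bq and Hist1h2br shared 94.8% and 86.4% of their 100-base stretches with other genes, and their deposited counts nearly coincided in every library.

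H2A had 2 tested genes out of 18. Hist3h2a had 11.5, 10.6 and 10.5 CPM in fresh and 9.62, 9.75 and 10.3 CPM in RNA-Best libraries, without overlap but within the error of the test (log2 fold change −0.14 ± 0.10, edgeR adjusted p = 0.241), and with the GC offset it passed at −0.26 (edgeR adjusted p = 0.0247). Hist1h2ae had 1.09, 1.40 and 1.22 CPM in fresh and 0.579, 1.09 and 0.654 CPM in RNA-Best libraries. RNA-Best replicate 2 reached the lowest fresh value, and the gene was called all the same, at −0.84 ± 0.31 (edgeR adjusted p = 0.0262). This call was lost without fresh replicate 2 (edgeR adjusted p = 0.106), RNA-Best replicate 1 (edgeR adjusted p = 0.132) or RNA-Best replicate 3 (edgeR adjusted p = 0.139). It was also lost with the length offset (edgeR adjusted p = 0.0772), the replicate block (edgeR adjusted p = 0.0534), both together (edgeR adjusted p = 0.133) or DESeq2 (adjusted p = 0.200).

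H3 had 7 tested members and no call with edgeR, nor any at an unadjusted p under 0.05, with DESeq2 or with limma-voom. Of all genes tested 24.8% were called lower and 26.0% higher. Among tested genes with a mean under 5 CPM, where all 7 lie, these shares were 5.29% and 14.2%. In none of the 7 did the groups separate, against 58.0% of all genes tested. The leading H3 gene Hist1h3c had 2.48, 2.45 and 2.75 CPM in fresh and 2.5, 1.65 and 2.21 CPM in RNA-Best libraries (log2 fold change −0.18 ± 0.19, edgeR adjusted p = 0.477). Estimates ran from −0.30 to 0.29, with a median of −0.11. Hist1h3g, at 0.29 ± 0.26, was the highest of all members, and its groups overlapped (edgeR adjusted p = 0.416). With standard errors of 0.19 to 0.34, a change of the size seen in Hist3h2ba or Hist1h1c was not detectable in single H3 genes.

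**Figure D4:**
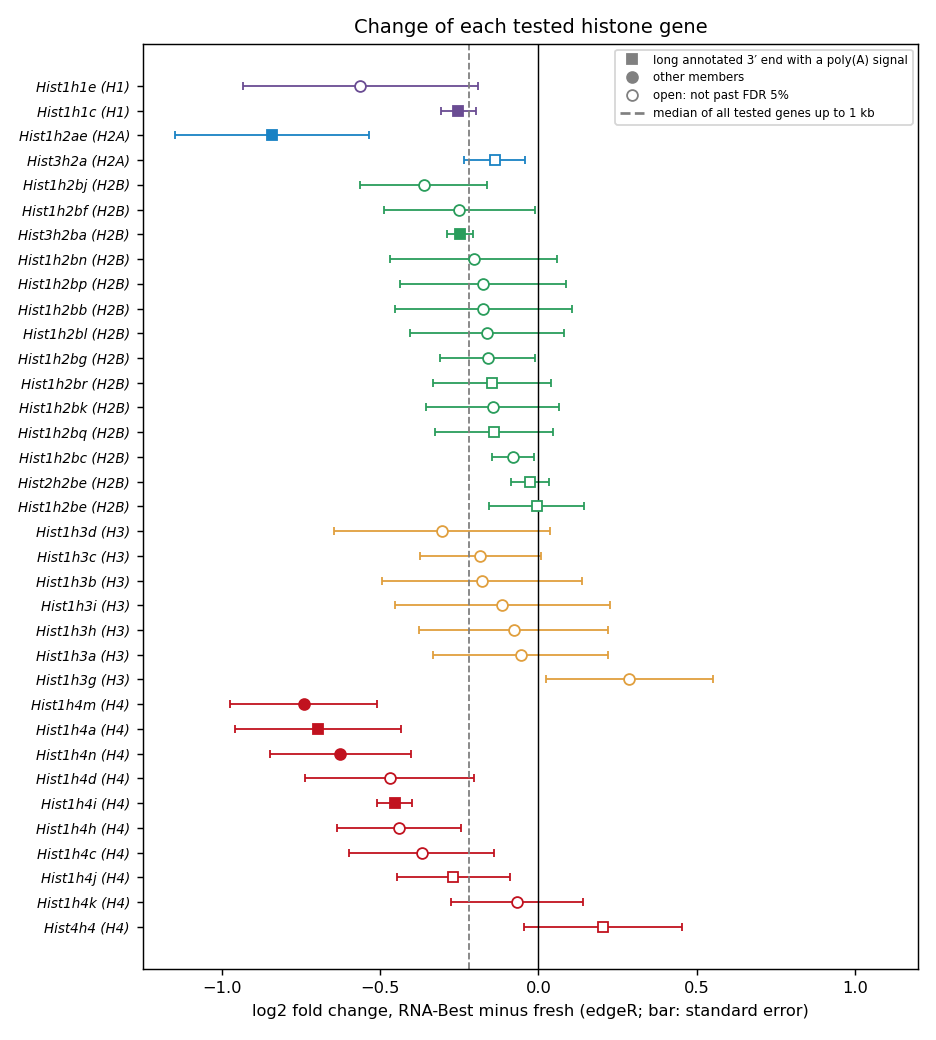
log2 fold change of each tested member, RNA-Best minus fresh, with its standard error from edgeR; filled symbols passed the false discovery rate of 5%, squares are genes with a long annotated 3′ end and a poly(A) signal, and the dashed line is the median of all tested genes of up to 1 kb (−0.22). Hist1h2ae and the H4 genes Hist1h4m, Hist1h4a and Hist1h4n lie farthest to the left, and all filled symbols are below 0.

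Histone genes are short, and in these data the change between groups moved with gene length across the whole table. The exonic length of the members had a median of 539 bases, and 48 of the 65 were no longer than 1 kb. Among all 1571 tested genes of up to 1 kb the median log2 fold change was −0.22, with 559 lower and 119 higher calls, and among the 13118 longer genes it was 0.01, with 3082 lower and 3697 higher calls. The 24 tested members of up to 1 kb had a median of −0.19 with 6 calls, and the 11 longer ones a median of −0.14 with 1 call. With an offset for length in the fit, 4 of the 7 calls were left, and in that fit 27.6% of all genes tested were called lower and 14.7% higher. The median was then −0.07 over the members, −0.09 over all genes of up to 1 kb and −0.05 over all genes tested. The estimate was −0.33 for Hist1h4i (edgeR adjusted p = 1.52e-05), −0.16 for Hist1h1c (edgeR adjusted p = 0.0182), −0.11 for Hist3h2ba (edgeR adjusted p = 0.0291) and −0.59 for Hist1h4m (edgeR adjusted p = 0.0453).

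**Figure D5:**
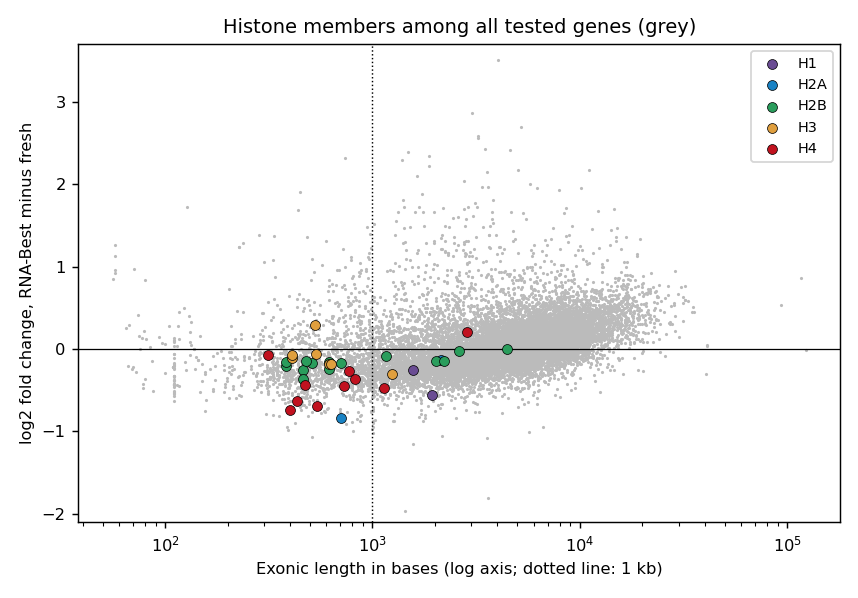
log2 fold change, RNA-Best minus fresh, against exonic length on a log axis for all tested genes (grey) and the 35 tested histone members (coloured by type), with a dotted line at 1 kb. The grey cloud rises from left to right, and the histone genes lie mostly on its left and below 0; several H4 genes and Hist1h2ae lie at its lower edge.

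Genes with a long annotated 3′ end and a poly(A) signal and the other members gave similar medians. The 12 tested genes of the first kind had a median log2 fold change of −0.20, with 5 lower calls, and the 23 others a median of −0.18, with 2, beside lower calls in 24.8% of all genes tested. The ratio of summed levels was 0.852 for the first kind and 0.879 for the rest, and the share of the first kind in the member counts overlapped between groups. The kinds differ in depth, since the first held most of the counts, and a test of their difference was not made.

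A list of 39 genes known to act in the transcription, 3′ processing or decay of histone mRNA was also followed. All were tested, and 26 were called, 10 higher and 16 lower, where 26.0% of all genes tested were called higher and 24.8% lower. Slbp itself had 115, 112 and 119 CPM in fresh and 112, 103 and 109 CPM in RNA-Best libraries, with overlap (log2 fold change −0.07 ± 0.04, edgeR adjusted p = 0.111), and with the length offset it was called lower, at −0.19 (edgeR adjusted p = 1.01e-04). Npat, which organizes histone transcription at the histone locus body, rose from 64.6, 64.2 and 57.2 to 91.0, 97.1 and 92.1 CPM (log2 fold change 0.56 ± 0.04, edgeR adjusted p = 8.38e-13).

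The largest rises of that list were in Tut7, a uridylyl transferase that marks histone mRNA for decay, and in Pou2f1, the octamer-binding factor. Tut7 went from 21, 21.1 and 19.0 to 32.3, 35.5 and 31.4 CPM (log2 fold change 0.65 ± 0.06, edgeR adjusted p = 1.28e-10), and Pou2f1 from 24.4, 25.5 and 23.8 to 37.0, 39.0 and 38.2 CPM (log2 fold change 0.61 ± 0.06, edgeR adjusted p = 4.45e-11). Both are long, at 14732 and 16597 exonic bases. With the length offset 23 genes of the list were called, 7 higher and 16 lower (14.7% and 27.6% of all genes tested in that fit), and Npat, Tut7 and Pou2f1 were still called, at 0.44, 0.28 and 0.21.

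Replication-independent histone variants, which are made throughout the cell cycle, mostly from polyadenylated mRNA, were followed as a list of 11. Of these 9 were called, all lower (24.8% of all genes tested were called lower), and their summed level of 4347 ± 75.7 CPM in fresh and 3938 ± 14.2 CPM in RNA-Best libraries (SD, n = 3 each) gave a ratio of 0.906. H2afv and H2afz, the H2A.Z genes, had the largest changes. H2afz went from 550, 528 and 569 to 456, 447 and 463 CPM (log2 fold change −0.26 ± 0.03, edgeR adjusted p = 2.25e-09), and H2afv from 243, 247 and 255 to 204, 200 and 209 CPM (log2 fold change −0.27 ± 0.03, edgeR adjusted p = 5.31e-09). With the length offset 6 of the variants were called, all lower, against 27.6% of all genes tested in that fit.

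Genes of DNA replication gave 24 calls of 35, 5 higher and 19 lower (26.0% and 24.8% of all genes tested), with a median log2 fold change of −0.10 and a ratio of summed levels of 0.962. Their largest changes were in Pole, the catalytic subunit of DNA polymerase epsilon, which went from 97.3, 97.5 and 96.8 to 122, 131 and 122 CPM (log2 fold change 0.35 ± 0.04, edgeR adjusted p = 4.45e-10), and in Gins2, a subunit of the replicative helicase, which went from 79.7, 80.3 and 78.2 to 65.2, 62.8 and 64.5 CPM (log2 fold change −0.31 ± 0.04, edgeR adjusted p = 1.39e-07). With the length offset 1 gene of the list was called higher and 21 lower (14.7% and 27.6% of all genes tested in that fit), and Pole was no longer called (log2 fold change 0.06, edgeR adjusted p = 0.201).

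RNAs that carry no poly(A) tail were followed for comparison. Of 17 found in the table (Rn7sk, Rmrp, Terc, small nuclear and Y RNAs and the like), 9 had counts, and together they summed to 7.03, 5.52 and 4.98 CPM in fresh and 5.28, 5.40 and 4.79 CPM in RNA-Best libraries, with overlap. Rn7sk, the RNA of the 7SK ribonucleoprotein, was the one gene of the list that could be tested (log2 fold change −0.14 ± 0.18, edgeR adjusted p = 0.534). Rpph1, the RNA of ribonuclease P, named after its values were seen, had 25, 23 and 12 counts in fresh and 3, 1 and 1 in RNA-Best libraries, or 0.620, 0.487 and 0.834 against 0.340, 0.203 and 0.0830 CPM. Its groups did not overlap, and with no filter it was called lower, at −1.62 (edgeR adjusted p = 0.0159). The histone members summed to 302 and 259 CPM in the same libraries.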

How the data were processed

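Libraries were prepared by the authors from polyadenylated RNA with an mRNA kit and sequenced as single reads. Reads were aligned to GRCm38 with STAR 2.5.1b and counted per gene with featureCounts 1.5.0-p1. The deposited values are estimated counts, not scaled for library size. The setting for reads with several hits and the use of strand are not given in the sources used here, so antisense or overlapping genes cannot be told apart from members.

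Counts were rounded, scaled by TMM, filtered (filterByExpr, minimum count 10) and tested with the quasi-likelihood test of edgeR 4.0.16 in R 4.3.3 over all genes. Alternatives used DESeq2 1.42.0 and limma 3.58.1 (voom). The script was tested on simulated data. A later GENCODE annotation of the same assembly matched 46574 of 47069 genes and gave symbols, lengths and sequences; 3 pseudogenes were removed. Length and GC offsets were loess fits with a span of 0.5.

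Members, lists and tests were chosen with earlier results of these data known. Named are the 6 members with the highest level per length, the member with the highest mean CPM of each type, the 3 highest and 3 lowest changes among called members, Slbp, Npat, and the 2 largest changes among called genes of each list. Replicate numbers did not pair the libraries.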

Additional observations from a re-analysis of the deposited data

How the results depend on the processing

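Hist1h4i and Hist1h1c were called in all 18 fits and Hist3h2ba in all but the replicate block with length offset (−0.09, edgeR adjusted p = 0.0712). The count of called members, 7 in the main fit, was 4 with the length offset, 2 with the replicate block and length offset, 3 with every library thinned to the smallest (11 tested), 3 with the DESeq2 Wald test and 0 when a log2 fold change of 1 or more in either direction was also asked for. Without 1 library it lay between 3 (without RNA-Best replicate 3) and 7. Over all genes, lower calls were 3651 of 14736 in the main fit, 4066 with the length offset and 4078 with the replicate block and length offset. They were 2534 of 12916 in the thinned fit and 2971 of 15010 without RNA-Best replicate 3. With DESeq2 they were 2779 of 27250, and 58 members had a value there. The median log2 fold change of the members was −0.242 with no filter, −0.224 with the replicate block, −0.0866 with the replicate block and length offset, −0.0719 with the length offset, −0.231 with counts cut to whole numbers, −0.230 with DESeq2 (where the median of all genes moved to 0.0883) and −0.140 with limma-voom, and −0.216 to −0.164 without 1 library. With that threshold 0 genes were called in the lists of processing genes, S phase genes and variants. For RNAs without a poly(A) tail, 1 (Rpph1) was called with no filter. The ratio of the H1 sums turned to 1.314 over members with whole counts and 1.027 without the 3 most counted genes. The whole-count H1 genes were Hist1h1b, Hist1h1a and Hist1h1t, with means of 0.453, 0.349 and 0.0308 CPM, all below the filter. The ratio of the H4 sums turned to 1.065 over members with whole counts. These were Hist4h4 and Hist1h4b, with means of 1.26 and 0.229 CPM. The H1 and H4 sums over all members were 37.6 and 60.4 CPM in fresh libraries. Signs also turned for genes near 0. Hist1h2bc had 0.0456 with the replicate block and length offset and 0.0224 with the length offset, and Hist2h2be 0.0209 and 0.0177 with these and −0.0549 to 0.00104 without 1 library (above 0 without RNA-Best replicate 3). Hist1h4k had 0.0402 and 0.0840 with these, 0.0519 with the GC offset and −0.34 to 0.102 without 1 library (above 0 without RNA-Best replicate 1). The cause of these changes was not tested.

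Replicate numbers were only names here, since the deviations of same-numbered libraries had correlations of −0.00792, 0.0171 and −0.00977. With the replicate block 6 members were called, all lower, beside 3659 lower calls among all 14736 genes tested. Hist1h2ae (−0.79, edgeR adjusted p = 0.0534) and Hist1h4a (−0.68, edgeR adjusted p = 0.0570) were no longer among them, and the H4 gene Hist1h4h (−0.54, edgeR adjusted p = 0.0329, against 0.0680 without the block) was added, so that the count of H4 calls stayed at 4.

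The deepest RNA-Best library held 11999363 counts, and 23 members with counts fell below the filter.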
